A study of Mus musculus with 12 samples.

Results

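Alveolar type 1 cell genes were followed through dissected mouse lung tumours and the normal tissue beside them. The 10 genes are Ager, Hopx, Aqp5, Pdpn, Rtkn2, Clic5, Akap5, Gprc5a, Spock2 and Cldn18. They were chosen by name, as genes known to mark this cell type, but with earlier results of these data already known. Their counts are therefore no independent test of the list. All 10 were found among the 78298 gene rows of the count table and among the 22190 genes with enough counts to test. RNA was sequenced from 12 libraries, 3 in each of 4 groups that combine a tissue (tumour or normal) with a treatment (HDM or VEH). The tumours are labelled LLC, and the normal tissue is lung adjacent to them. HDM is house dust mite, given as chronic exposure. The labels do not spell out LLC or VEH and give no strain, sex, age or dose. The normal tissue is described as matched and adjacent to tumour, and no group is labelled as lung from tumour-free mice.

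Alveolar type 1 cells are the thin, flat cells that cover most of the gas-exchange surface of the lung, and alveolar type 2 cells are the surfactant-making cells that can renew them. Type 1 cells lie against the capillaries, carry water and ions, and seal the air space with tight junctions. Their identity is known to depend on the homeodomain factor NKX2-1 together with the YAP/TAZ co-activators and their TEAD partners. Several of the genes are not private to type 1 cells. Cldn18 is also made by type 2 cells, Pdpn by lymphatic endothelium, mesothelium and some fibroblasts, and Hopx by cardiac muscle and some lymphocytes.

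Total counts ran from 20608682 (tumour VEH 3) to 32765364 (normal VEH 2), and mitochondrial genes took 0.342% of counts in tumour HDM 3 and up to 5.38% in normal VEH 1. Library names carry 6 prefixes, each shared by 1 normal and 1 tumour library, and the labels do not say what a prefix stands for. Of these pairs, normal HDM 3 with tumour VEH 3 and normal VEH 2 with tumour HDM 2 join libraries of different treatment labels. Tumour HDM 3 and tumour VEH 2 stood apart from the other tumours for the type 1 genes. The labels do not say whether libraries of a group came from separate mice, so p-values measure the spread between these libraries. That spread exceeded counting noise, with a chi-square per gene from 32.4 to 290 between libraries of a group. Whether it arose between mice or from other technical steps was not tested.

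Levels are given in CPM, read counts scaled to a common effective library size. In normal tissue every one of the 10 genes was well measured. Compared per kilobase of gene length, the mean over the 6 normal libraries was 1042 CPM per kb for Ager, 481 for Hopx, 329 for Gprc5a, 158 for Cldn18, 124 for Aqp5, 90.9 for Pdpn, 76.0 for Spock2, 75.8 for Clic5, 38.1 for Akap5 and 26.4 for Rtkn2. Ager was above Hopx in 6 of 6 libraries, Gprc5a above Cldn18 in 6 of 6 and Cldn18 above Aqp5 in 6 of 6. Spock2 and Clic5 could not be ordered, with Spock2 the higher in 3 of 6, and Aqp5 and Pdpn or Pdpn and Spock2 kept their order in only 5 and 4 of 6. In the tumours the top of the order by mean was the same, at 91.2 CPM per kb for Ager, 47.3 for Hopx and 39.2 for Gprc5a. Ager was above Hopx, and Hopx above Gprc5a, in 5 of 6 tumour libraries each. In tumour HDM 3 Ager was at 0.637 CPM per kb and Hopx at 21.0. Pdpn came next by mean at 22.0, ahead of Cldn18 at 18.1 and Aqp5 at 15.4. Pdpn was above Cldn18 in 4 of 6 tumour libraries.

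The letters upstream of these genes are shown because the genes moved together across the libraries and because they split into a group that nearly vanished from tumour HDM 3 and a group that did not. Each sequence is the 250 bases before the start of the gene's canonical transcript in GRCm39, read on the gene's own strand, with searched motif letters in capitals. The windows of Hopx, Aqp5, Akap5 and Spock2 were searched but are not printed. Ager, Clic5 and Cldn18 belong to the genes near 0 in tumour HDM 3, and Pdpn, Rtkn2 and Gprc5a to those retained there. They lie at chr17:34816577-34816826 (plus strand, Ager), chr17:44445409-44445658 (plus, Clic5), chr9:99592117-99592366 (minus, Cldn18), chr4:143026144-143026393 (minus, Pdpn), chr10:67815140-67815389 (plus, Rtkn2) and chr6:135042394-135042643 (plus, Gprc5a). None of the 6 windows overlaps an annotated exon.
Ager: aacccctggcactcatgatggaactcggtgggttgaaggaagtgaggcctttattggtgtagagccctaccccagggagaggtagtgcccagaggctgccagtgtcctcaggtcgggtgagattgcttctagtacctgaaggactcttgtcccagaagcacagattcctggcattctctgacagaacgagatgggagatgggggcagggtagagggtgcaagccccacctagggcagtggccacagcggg
Clic5: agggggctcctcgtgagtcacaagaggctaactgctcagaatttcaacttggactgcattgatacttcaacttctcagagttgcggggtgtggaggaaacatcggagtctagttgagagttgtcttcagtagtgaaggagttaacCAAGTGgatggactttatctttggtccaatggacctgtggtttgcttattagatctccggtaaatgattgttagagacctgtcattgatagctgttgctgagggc
Cldn18: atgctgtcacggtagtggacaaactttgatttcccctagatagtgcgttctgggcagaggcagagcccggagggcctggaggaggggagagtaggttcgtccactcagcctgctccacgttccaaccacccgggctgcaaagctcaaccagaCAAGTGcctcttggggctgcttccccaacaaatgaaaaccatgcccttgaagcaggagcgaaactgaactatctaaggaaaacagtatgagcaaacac
Pdpn: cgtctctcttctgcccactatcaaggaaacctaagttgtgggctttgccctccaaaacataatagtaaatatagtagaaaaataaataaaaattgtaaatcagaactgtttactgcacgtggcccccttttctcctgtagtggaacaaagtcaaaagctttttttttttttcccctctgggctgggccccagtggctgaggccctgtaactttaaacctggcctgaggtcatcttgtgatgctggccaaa
Rtkn2: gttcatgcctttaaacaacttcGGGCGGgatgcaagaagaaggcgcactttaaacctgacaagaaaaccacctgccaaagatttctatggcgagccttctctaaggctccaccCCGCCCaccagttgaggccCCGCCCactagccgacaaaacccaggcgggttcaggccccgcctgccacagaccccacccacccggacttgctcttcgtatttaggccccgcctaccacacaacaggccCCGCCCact
Gprc5a: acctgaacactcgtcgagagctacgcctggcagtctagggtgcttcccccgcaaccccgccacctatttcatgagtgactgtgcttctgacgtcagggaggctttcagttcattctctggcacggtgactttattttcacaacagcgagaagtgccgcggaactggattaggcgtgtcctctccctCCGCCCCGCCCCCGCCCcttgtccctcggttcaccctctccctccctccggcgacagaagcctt
The motifs searched, on both strands, were GGAATG (the core bound by TEAD factors), CAAGTG (by NKX2-1), GGGCGG (by SP and KLF factors) and TATAAA (the TATA box). The letters CAAGTG occurred upstream of 2 of the 10 genes, against 12.4% of 21723 promoters. They lay from 105 to 100 bases before the start in Clic5 and from 98 to 93 in Cldn18. Both genes were near 0 in tumour HDM 3, as were Ager, Aqp5, Akap5 and Spock2, which lacked these letters. The retained genes lacked them too, and the split rests on that library alone. GGGCGG occurred upstream of 4 of 10 (Aqp5, Rtkn2, Akap5 and Gprc5a), against 36.3% of all promoters. It did not follow the split in tumour HDM 3, since Aqp5 and Akap5 were near 0 there and Rtkn2 and Gprc5a were retained. GGAATG and TATAAA occurred upstream of none of the 10 and of 12.1% and 11.9% of all promoters. GC content ran from 43.2% (Pdpn) to 67.2% (Aqp5), around an all-promoter median of 53.2%.

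The first comparison asks how the tumour differs from the lung beside it. All 10 genes were lower in tumours than in adjacent lung under both treatments, and for each gene every tumour library lay below every normal library. That complete separation held for 19.9% of all tested genes in the same direction. Changes between groups are log2 fold changes ± SE from edgeR's quasi-likelihood test over all 12 libraries, with p-values adjusted by Benjamini and Hochberg over 22190 genes and a gene called at an adjusted p under 0.05. Within a treatment, all 10 separated completely, against 28.5% of all genes under VEH and 33.5% under HDM. Under VEH 7 of the 10 were called lower and 0 higher, where 20.6% of all genes were called lower and 18.2% higher, and their median log2 fold change was -2.98 against -0.11 for all genes. Under HDM 10 of 10 were called lower and 0 higher, where 28.9% and 23% of all genes were, with a median of -4.19 against -0.08. Because the tissue was sequenced in bulk, fewer type 1 cells and less RNA per type 1 cell cannot be told apart.

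**Figure D1:**
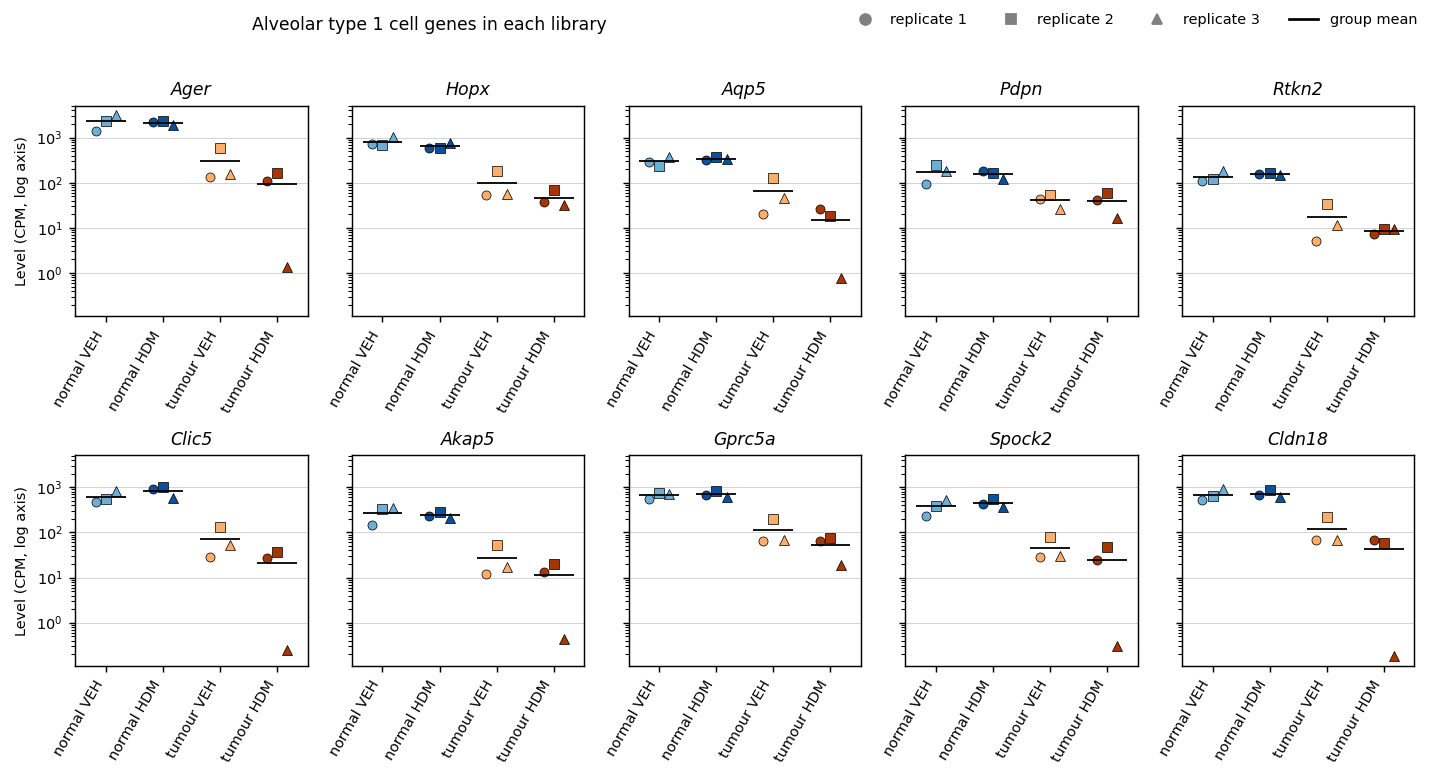
Level of each of the 10 genes in every library, in CPM on a log axis, with libraries grouped by tissue and treatment. Each point is 1 library. All 6 tumour points lie below all 6 normal points for each gene, and tumour HDM 3 falls to between 0.182 and 1.36 CPM for 6 genes while Hopx, Gprc5a, Pdpn and Rtkn2 stay between 9.37 and 31.9 CPM.

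Ager encodes RAGE, a surface receptor that type 1 cells carry at very high level (ENSMUSG00000015452, chromosome 17, 34816827 to 34819910). Its level was 1391, 2394 and 3132 CPM in normal VEH 1, 2 and 3 and 2186, 2374 and 1908 CPM in normal HDM. In tumour VEH it was 131, 602 and 160.4 CPM, and in tumour HDM 111, 166 and 1.36 CPM. No tumour reached the lowest normal library, and tumour HDM 3 was far below the other 5. The log2 fold change was -2.95 ± 1.15 (SE; adjusted p = 0.0647, edgeR), not called, under VEH and -4.54 ± 1.24 (adjusted p = 0.0115, edgeR) under HDM.

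Gprc5a encodes an orphan G-protein-coupled receptor induced by retinoic acid and known as a lung tumour suppressor in mice (ENSMUSG00000046733, chromosome 6, 135041809 to 135061707). Normal VEH gave 551, 731 and 725 CPM and normal HDM 672, 835 and 602 CPM. Tumour VEH gave 66.0, 199.8 and 67.9 CPM and tumour HDM 63.0, 74.4 and 19.2 CPM. The normal libraries were tightly grouped, and the tumour values left a wide gap below them. The log2 fold change of Gprc5a was -2.59 ± 0.54 under VEH (edgeR adjusted p = 0.00474) and -3.75 ± 0.57 under HDM (adjusted p = 0.000555).

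Among the transport genes, Aqp5 encodes the apical water channel (ENSMUSG00000044217, chromosome 15, 99488532 to 99492710). It stood at 289, 238 and 381 CPM in normal VEH and 317, 381 and 328 CPM in normal HDM. The tumours had 20.7, 127 and 46.1 CPM under VEH and 26.8, 18.4 and 0.789 CPM under HDM. Tumour VEH 2 held the highest tumour value. The Aqp5 difference was -2.23 ± 0.93 under VEH (edgeR adjusted p = 0.0792), not called, and -4.48 ± 1.03 under HDM (adjusted p = 0.00483).

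Clic5, a chloride intracellular channel protein tied to the actin cortex (ENSMUSG00000023959, chromosome 17, 44445659 to 44591590), had 479.9, 557 and 831 CPM in normal VEH. Normal HDM had 902, 1043 and 586 CPM, tumour VEH 29.1, 133 and 51.9 CPM, and tumour HDM 26.5, 37.5 and 0.243 CPM. The last value rests on 8 counts. Clic5 had the largest drop of the 10 under HDM, -5.30 ± 1.25 (edgeR adjusted p = 0.00566), and a change of -3.12 ± 1.13 under VEH (adjusted p = 0.0496).

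Cldn18 encodes a claudin of the alveolar tight junction (ENSMUSG00000032473, chromosome 9, 99571514 to 99599320). Its values were 512, 636 and 924 CPM in normal VEH, 689.9, 865 and 602 CPM in normal HDM, 66.4, 221 and 69.4 CPM in tumour VEH and 68.5, 59.0 and 0.182 CPM in tumour HDM, the last from 6 counts. The other 5 tumours lay between 59.0 and 221 CPM, while tumour HDM 3 was nearly empty. Cldn18 had the widest error of the 10 under VEH, -2.54 ± 1.19 (edgeR adjusted p = 0.112), and was not called there, while under HDM it fell by 4.08 ± 1.28 (adjusted p = 0.0215).

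Pdpn encodes podoplanin, a mucin-like membrane glycoprotein that binds CLEC-2 and ezrin-family proteins (ENSMUSG00000028583, chromosome 4, 142990871 to 143026143). It had 96.2, 247 and 179.8 CPM in normal VEH and 182, 163 and 122 CPM in normal HDM. The tumours had 42.6, 54.2 and 26.5 CPM under VEH and 41.8, 58.6 and 16.3 CPM under HDM. By log2 fold change Pdpn was the least reduced gene of the 10 in both comparisons. The log2 change in Pdpn was -2.08 ± 0.48 under VEH (edgeR adjusted p = 0.00763) and -2.004 ± 0.48 under HDM (adjusted p = 0.00589). Under VEH Aqp5 was close, at -2.23 ± 0.93, so their order there is not settled. In tumour VEH 2 Aqp5 kept 42.0% of the normal VEH mean and Pdpn 31.1%.

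Hopx encodes a small homeodomain protein that does not bind DNA itself (ENSMUSG00000059325, chromosome 5, 77234831 to 77263022). Its level was 729, 672 and 1036 CPM in normal VEH, 594, 598 and 749 CPM in normal HDM, 53.8, 181 and 57.8 CPM in tumour VEH and 37.5, 68.0 and 31.9 CPM in tumour HDM. The tumour HDM libraries were close together, tumour HDM 3 included. The log2 change in Hopx was -3.06 ± 0.49 under VEH (edgeR adjusted p = 0.0014) and -3.82 ± 0.50 under HDM (adjusted p = 0.000294). An antisense gene, Hopxos, overlaps it and had 32.5% as many counts over all libraries. Hopxos ran from 195 to 322 CPM in normal tissue and from 14.7 to 48.8 CPM in tumours. Libraries were stranded per the labels, but whether counting used the strand is not given in the sources used here, so the split between Hopx and Hopxos is uncertain.

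Rtkn2 encodes rhotekin 2 (ENSMUSG00000037846, chromosome 10, 67815390 to 67895570). It had 110.1, 122 and 179.7 CPM in normal VEH and 153, 164 and 151 CPM in normal HDM. Tumour VEH had 5.23, 34.4 and 11.3 CPM, and tumour HDM 7.39, 9.36 and 9.37 CPM. Tumour HDM 3 was the lowest HDM tumour for the other 9 genes but not for Rtkn2. The log2 change in Rtkn2 was -3.01 ± 0.55 under VEH (edgeR adjusted p = 0.0026) and -4.16 ± 0.58 under HDM (adjusted p = 0.000382). The antisense gene Gm16212 overlaps Rtkn2 with 10.4% as many counts, and Gm34765 overlaps Aqp5 with 8.29%.

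Akap5, a scaffold that anchors protein kinase A and calcineurin (ENSMUSG00000021057, chromosome 12, 76371613 to 76382157), ran from 149 to 355 CPM over the normal libraries. In tumours it was 11.8, 52.2 and 16.8 CPM under VEH and 13.3, 20.2 and 0.425 CPM under HDM. It had the largest fold change of the 10 under VEH, -3.36 ± 1.00 (edgeR adjusted p = 0.0239), and fell by 4.43 ± 1.06 under HDM (adjusted p = 0.00589). Spock2 encodes testican 2, an extracellular matrix proteoglycan (ENSMUSG00000058297, chromosome 10, 59942041 to 59971357). It ran from 237 to 556 CPM in normal tissue and was 28.6, 78.3 and 30.5 CPM in tumour VEH and 24.3, 48.6 and 0.303 CPM in tumour HDM. The log2 change in Spock2 was -3.08 ± 1.10 under VEH (edgeR adjusted p = 0.0479) and -4.22 ± 1.16 under HDM (adjusted p = 0.0119).

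**Figure D2:**
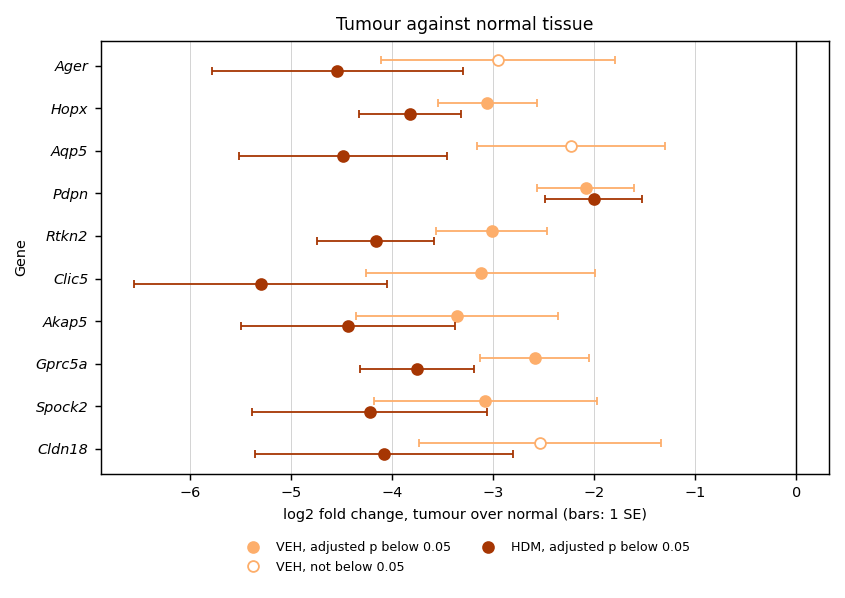
Log2 fold change of each gene in tumours over normal tissue under VEH and under HDM, with bars of 1 SE; filled points have an adjusted p under 0.05 and open points do not. Every point is below 0, from -3.36 to -2.08 under VEH and from -5.30 to -2.004 under HDM, and only Ager, Aqp5 and Cldn18 under VEH are open.

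The VEH count depended on which library was left out. It was 4 of 10 without normal VEH 3, without tumour VEH 1 or without tumour VEH 3, with Hopx, Pdpn, Rtkn2 and Gprc5a called each time, where 13.9%, 10.6% and 10.7% of all tested genes were called lower. Without tumour VEH 2 it was 8 of 10, where 21.2% of all genes were called lower. Without the 4 libraries whose prefixes join different treatments, 1 of 10 was called under VEH (Hopx) and 4 of 10 under HDM (Hopx, Pdpn, Rtkn2 and Gprc5a), with the direction kept for all 10. In those smaller fits 9.23% and 18% of all genes were called lower. With the library-name prefix as a block, 4 of 10 were called under VEH (Hopx, Pdpn, Rtkn2 and Gprc5a) and 9 of 10 under HDM (all but Cldn18), where 12.3% and 21.8% of all genes were called lower. The HDM count was 10 of 10 without tumour HDM 3 and 9 of 10 without tumour HDM 2, where Cldn18 was not called, beside 21% and 22.3% of all genes called lower.

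How much of each gene was left differed between tumours. As a percentage of the mean of the normal libraries of the same treatment, tumour VEH 1 held from 3.80% (Rtkn2) to 24.4% (Pdpn) with a median over the 10 genes of 6.73%. Tumour VEH 3 held a median of 8.28%, tumour HDM 1 of 5.62% and tumour HDM 2 of 8.23%. Tumour VEH 2 held more, from 18.9% (Akap5) to 42.0% (Aqp5) with a median of 25.6%, and its levels were from 1.57 times (Pdpn) to 4.16 times (Rtkn2) the mean of the other VEH tumours. Tumour HDM 3 held a median of 0.202%. There Cldn18 and Clic5 were each at 0.03% of normal, Ager at 0.06%, Spock2 at 0.07%, Akap5 at 0.17% and Aqp5 at 0.23%, while Gprc5a was at 2.73%, Hopx at 4.93%, Rtkn2 at 6.01% and Pdpn at 10.4%. The mean of tumour HDM 1 and 2 exceeded tumour HDM 3 by 350 times for Cldn18 and 132 times for Clic5, but by 3.57 times for Gprc5a, 3.09 for Pdpn and 1.65 for Hopx, and for Rtkn2 the ratio was 0.894.

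**Figure D3:**
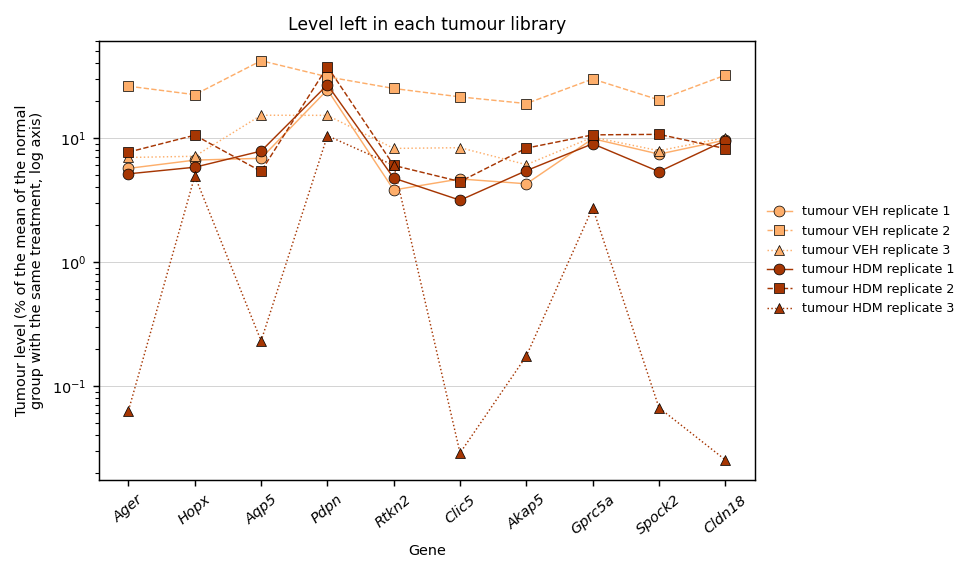
Level left in each tumour library as a percentage of the mean of the 3 normal libraries of the same treatment, on a log axis, 1 point per gene and library. Tumour VEH 2 sits highest with a median of 25.6%, and in tumour HDM 3 the genes split into 6 at 0.23% or less and 4 from 2.73% to 10.4%.

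Lists of other cell types differed between the same libraries. In tumour HDM 3 the alveolar type 2 list (Sftpc, Sftpb and 9 others) summed to 126 CPM against 3016 and 3141 CPM in the other HDM tumours, and the airway list (Scgb1a1 and 7 others) to 19.5 CPM against 860 and 1203 CPM. Of the 8 pan-epithelial genes, Epcam, Cdh1, Esrp1 and Cdh16 had no count there. The list summed to 523 CPM, between 435 and 549.5 CPM in the other HDM tumours, nearly all from Krt8 at 335 and Krt18 at 187 CPM. The mean log2 CPM of the list was -0.05 in tumour HDM 3 against 3.86 and 3.54 in tumour HDM 1 and 2. Tumour VEH 2 had the highest airway sum of the tumours, 21019 CPM, and the highest type 2 sum of the tumours, 9765 CPM, while its pan-epithelial sum was 1086 CPM against 597 and 984 CPM in the other VEH tumours. The endothelial sum was also highest in tumour VEH 2, at 627 CPM against 358 and 368 CPM, and lowest of the tumours in tumour HDM 3, at 141 CPM against 320 and 186 CPM. The fibroblast sum was lowest of the tumours in tumour VEH 2, at 4656 CPM against 10922 and 11806 CPM. It was 10709 CPM in tumour HDM 3 against 13204 and 13379 CPM. Col3a1 alone averaged 6729 CPM in VEH tumours and 9243 CPM in HDM tumours. The mean log2 CPM of the fibroblast list was 6.18 in tumour VEH 2 against 7.24 and 7.52 in the other VEH tumours. In tumour HDM 3 it was 6.73, between 7.54 in tumour HDM 1 and 6.61 in tumour HDM 2. The 10 type 1 genes summed to 1685 CPM in tumour VEH 2 and 80.1 CPM in tumour HDM 3, against 420 to 559 CPM in the other 4 tumours and 4544 to 8272 CPM in normal tissue. The part of these other cells in the type 1 result was not tested.

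Other genes tied to the alveolar surface were read from lists by role, each set beside the all-gene medians of -0.11 (VEH) and -0.08 (HDM). Of all tested genes, 20.6% were called lower and 18.2% higher under VEH, and 28.9% and 23% under HDM. Of 16 further type 1 genes, 9 were called lower and 1 higher under VEH and 14 lower and 1 higher under HDM, with medians of -2.14 and -2.93. Emp2, a tetraspan membrane protein, fell, with changes of -1.94 ± 0.37 and -2.79 ± 0.38 under the 2 treatments (edgeR adjusted p = 0.00298 and 0.000313). Cav1, the caveolae protein also abundant in endothelium and fibroblasts, fell less, with -1.06 ± 0.22 and -0.65 ± 0.22 (adjusted p = 0.00475 and 0.0307). Sema3a, a secreted guidance cue, rose by 0.65 ± 0.21 and 1.31 ± 0.21 (adjusted p = 0.0312 and 0.000712).

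The type 2 list showed 3 of 11 genes called lower under VEH and 11 of 11 under HDM, with medians of -2.15 and -3.80. Its VEH count was near the all-gene share of 20.6%. Sftpc, the surfactant protein that defines type 2 cells, changed by -2.90 ± 1.35 under VEH (edgeR adjusted p = 0.108), not called, and fell by 4.59 ± 1.46 under HDM (adjusted p = 0.0227). A transitional state between type 2 and type 1 cells was read from 9 genes. Of these, 1 was called higher and 0 lower under VEH (median 0.11). Under HDM 1 was called higher and 3 lower (median -1.16). These counts were near or under the all-gene shares. Krt8, a keratin of this state, was not called, at 0.18 ± 0.26 and -0.17 ± 0.26 (edgeR adjusted p = 0.596 and 0.598). Krt18 rose by 0.64 ± 0.19 under VEH (adjusted p = 0.0217). Areg, an EGF-family ligand, rose by 1.91 ± 0.38 under HDM (adjusted p = 0.00217), and Krt19 fell there, with -3.76 ± 0.92 (adjusted p = 0.00668).

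Regulators of alveolar fate divided. Of 10, 4 were called lower and 0 higher under VEH and 7 lower and 1 higher under HDM. Nkx2-1 changed by -2.78 ± 1.08 under VEH (edgeR adjusted p = 0.0634), not called, and fell by 4.53 ± 1.17 under HDM (adjusted p = 0.00889). Gata6, Klf5, Foxa2 and Cebpa were called lower under both treatments. The YAP/TAZ-TEAD genes on the list were not called lower. Yap1 changed by 0.07 ± 0.19 and 0.26 ± 0.19 (edgeR adjusted p = 0.788 and 0.28), Tead1 by -0.01 ± 0.19 and 0.39 ± 0.19 (adjusted p = 0.96 and 0.109), and Wwtr1, which encodes TAZ, by 0.39 ± 0.23 under VEH (adjusted p = 0.185). Wwtr1 rose by 0.93 ± 0.23 under HDM (edgeR adjusted p = 0.00653). In tumour HDM 3, where Epcam, Cdh1, Esrp1 and Cdh16 had no count, the 10 regulators still summed to 634 CPM. Their sums in the other HDM tumours were 763 and 779 CPM. Which cells of the bulk tissue carried the Yap1, Tead1 and Wwtr1 RNA was not tested.

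Barrier and transport genes were called lower or not called. Tight junction genes were called lower for 5 of 9 under VEH and 8 of 9 under HDM (medians -1.80 and -3.48). Tjp1, which encodes the scaffold ZO-1, fell, with -1.34 ± 0.14 and -1.16 ± 0.13 (edgeR adjusted p = 0.000321 and 0.000159), and F11r, a junctional adhesion molecule, with -2.05 ± 0.48 and -3.48 ± 0.51 (adjusted p = 0.00853 and 0.000493). Ion and water transport genes were called lower for 4 of 9 and 7 of 9 (medians -2.61 and -3.71). Aqp1, a water channel of capillary endothelium, fell, with -1.79 ± 0.44 and -2.99 ± 0.46 (edgeR adjusted p = 0.0106 and 0.000618). Binding partners of the encoded proteins, such as the ezrin family for podoplanin, had smaller medians. Of 15, 7 were called lower under VEH (median -0.40) and 4 lower and 1 higher under HDM (median -0.48). The HDM counts were near or under the all-gene shares. Msn, which encodes moesin of the ezrin family, had values of -0.09 ± 0.20 and -0.39 ± 0.20 (adjusted p = 0.737 and 0.12), and Ppp3cb, a calcineurin subunit, rose by 0.63 ± 0.16 under HDM (adjusted p = 0.00833).

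Lists of other cell types are read beside the shares of all genes called lower (20.6% under VEH and 28.9% under HDM) and higher (18.2% and 23%). Endothelial genes were called lower for 10 of 10 under both treatments, with medians of -2.89 and -3.95, and summed to 141 to 627 CPM in tumours against 1831 to 3896 CPM in normal tissue. Pecam1, an endothelial adhesion molecule, fell, with -2.36 ± 0.36 and -3.63 ± 0.38 (edgeR adjusted p = 0.00104 and 0.000112). Under VEH and HDM, genes called lower numbered 1 of 6 and 6 of 6 for lymphatic endothelium, 5 of 6 and 2 of 6 for mesothelium, 0 of 8 and 5 of 8 for airway, 1 of 5 and 5 of 5 tested for cardiac muscle, and 1 of 8 and 6 of 8 for pan-epithelial genes, where Krt18 was called higher under VEH. The lymphatic, airway, cardiac and pan-epithelial counts under VEH and the mesothelial count under HDM were near or under the all-gene share. Fibroblast genes went both ways, 3 of 9 higher and 1 lower under VEH (Col1a2, -2.18 ± 0.61, edgeR adjusted p = 0.0188) and 3 higher and 3 lower under HDM. Col3a1, a fibrillar collagen, rose by 3.20 ± 0.60 and 4.57 ± 0.64 (adjusted p = 0.00301 and 0.000394). Among T and NK cell genes 2 of 7 were called higher under VEH and 2 of 7 lower under HDM, the latter close to the all-gene share. Lymphatic, mesothelial and cardiac genes, whose cells can carry Pdpn or Hopx, summed to 38.97 to 128 CPM, 5.52 to 72.8 CPM and 1.03 to 15.1 CPM in tumours. In normal tissue the same sums were 268 to 460.2, 13.7 to 1087 and 16.7 to 418 CPM. Fibroblast genes, whose cells can also carry Pdpn, summed higher in tumours, at 4656 to 13379 CPM against 1023 to 3081 CPM in normal tissue. T and NK cell genes, from cells that can carry Hopx, summed to 2.76 to 62.6 CPM in tumours and 18.5 to 34.9 CPM in normal tissue. The part of all these cells in the Pdpn and Hopx values was not tested.

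**Figure D4:**
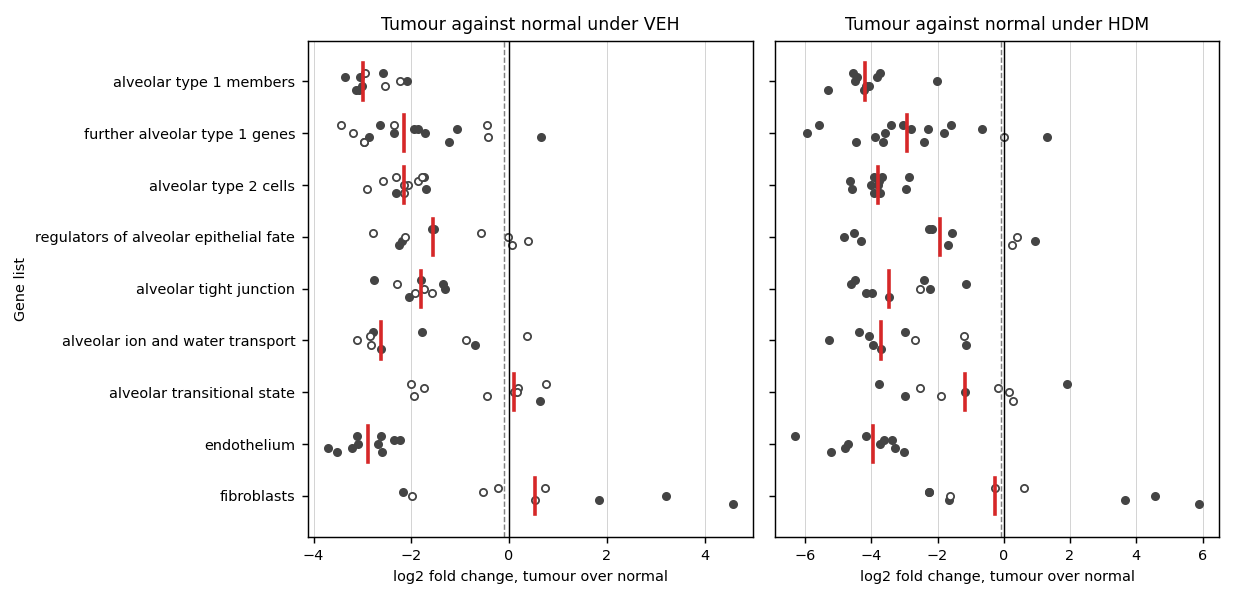
Log2 fold change of every tested gene of the type 1 genes and of the other lists, tumours over normal tissue, 1 panel per treatment. Filled points have an adjusted p under 0.05, open points do not, the red bar is the list's median and the dashed line the median of all genes. The 10 type 1 genes have medians of -2.98 (VEH) and -4.19 (HDM), and the endothelial list has -2.89 and -3.95.

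Genes that were not on the list but followed it most closely were found by correlating 12306 expressed genes with the mean standardised level of the 10 across the 12 libraries. They were Bcam (r = 0.998), Galnt18 (0.997), Gramd2a (0.996), Gm69541 (0.995) and Tspan8 (0.995). Bcam, a laminin receptor, ran from 473 to 955 CPM in normal tissue and from 4.85 to 196 CPM in tumours, with the lowest value in tumour HDM 3. Gm69541 lies antisense to Gramd2a, so these 2 share sequence and possibly reads. The r values are a description, since the libraries share the split between tumour and normal tissue. Within the 10, Akap5 was closest to the mean of the other 9 (r = 0.998) and Rtkn2 the farthest (r = 0.854), with Hopx at 0.913 and Pdpn at 0.927.

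The other comparison asks whether HDM exposure changed the type 1 genes within a tissue. It did not do so detectably in adjacent lung. There 0 of 10 genes were called, against 0% of all tested genes, and 0 of 10 had an unadjusted p under 0.05 in edgeR (5.54% of all genes did), with every adjusted p at 1. DESeq2 called 43 genes in this comparison, and 0 of the 10. The median log2 fold change was 0.06, HDM over VEH, and none of the 10 had groups that did not overlap (4.47% of all genes were wholly higher and 5.85% wholly lower). Hopx had the most negative value, -0.33 ± 0.45, with an interval of 2 SE from -1.23 to 0.57. Clic5 had the most positive, 0.44 ± 1.04, with an interval from -1.65 to 2.52. For Ager the interval ran from -2.24 to 2.05 around -0.10, so log2 changes of 2 in either direction lay inside it.

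In tumours the 10 values were all below 0, HDM over VEH, with a median of -1.18, but 0 of 10 were called against 0.0946% of all genes. Adjusted p ran from 0.275 to 0.954 (edgeR). DESeq2 called 1311 genes and 0 of the 10. At an unadjusted p under 0.05, 2 of 10 passed, where 16.7% of all genes did. These were Aqp5 (-2.08 ± 0.93, adjusted p = 0.295) and Hopx (-1.09 ± 0.46, adjusted p = 0.275). Pdpn was nearest to 0, at -0.08 ± 0.46, with an interval of 2 SE from -1.002 to 0.84. None of the 10 had tumour HDM libraries wholly below or wholly above the tumour VEH libraries, where 10.7% and 11.3% of all genes did. The median moved to -0.35 without tumour VEH 2 and to -0.86 without tumour HDM 3, the libraries that stood apart.

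Whether the tumour difference itself changed with treatment was read from the interaction of tissue and treatment. Its values ran from -2.26 ± 1.27 (Aqp5) to 0.08 ± 0.65 (Pdpn), with a median of -1.16. None of the 10 was called, against 0% of all genes, and adjusted p ran from 0.571 to 0.979 (edgeR), while DESeq2 called 222 genes and 0 of the 10. The larger count and medians under HDM than under VEH were therefore not shown to differ between treatments.

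**Figure D5:**
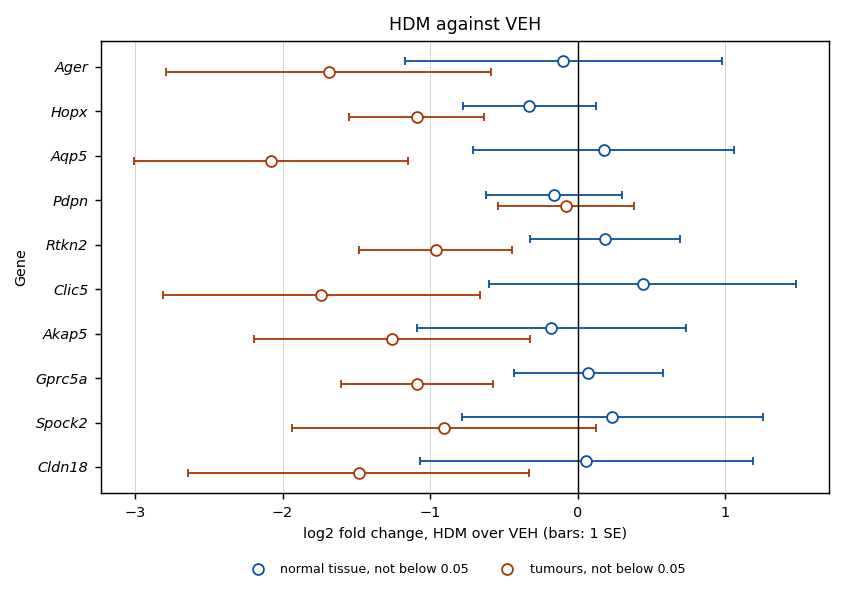
Log2 fold change of each gene, HDM over VEH, in normal tissue and in tumours, with bars of 1 SE. All points are open because none has an adjusted p under 0.05. Normal-tissue points lie from -0.33 to 0.44 and tumour points from -2.08 to -0.08.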

How the data were processed

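RNA from 12 libraries was sequenced by the submitters, and libraries were stranded per the labels' protocols. The submitters' processing notes name the mm39 build, Trim Galore, STAR, featureCounts and Subread, without roles or versions. The deposited table holds raw read counts per gene, the authors' own, with gene lengths per the file headers. Gene IDs were matched to symbols in GENCODE M39, which held 78168 of 78298 IDs, and IDs outside it took 0.143% of counts.

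Counts were tested with edgeR 4.0.16 (R 4.3.3; TMM scaling, filterByExpr with a minimum count of 10, robust quasi-likelihood fit of 4 groups over all 12 libraries), with Benjamini-Hochberg adjustment over 22190 genes and a call at an adjusted p under 0.05. All 10 type 1 genes passed the filter. The SE of a log2 fold change is its size over the square root of F. CPM per kb used the deposited length. DESeq2 1.42.0, other scalings and filters, blocks and leaving out libraries were alternatives. Analysis was tested on simulated data. Values are given per library, with n = 3 per group.

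Deviations from group means correlated from -0.355 to 0.303 between same-numbered libraries and from -0.219 to 0.179 between the 6 same-prefix pairs. Libraries sharing neither ranged from -0.526 to 0.544, so these correlations cannot show whether libraries are paired. No block entered the reported fit, and fits with the number or the prefix as a block were alternatives. Promoter letters were read from the GRCm39 genome. The members and lists were chosen with earlier results of these data known. Named genes were all 10 members, genes taken from the 3 most abundant genes of each list with any gene called against its list's majority, and the 5 non-members with the highest correlation at an average log2 CPM of at least 3. Nkx2-1, Gata6, Klf5, Foxa2, Cebpa, Epcam, Cdh16 and Esrp1 were named after their values were seen. Some genes of these lists are not reported here by name.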

Additional observations from a re-analysis of the deposited data

How the results depend on the processing

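Direction below 0 in tumours against normal tissue was kept for all 10 genes under every alternative run. The count called under VEH, 7 as reported, was 7 with DESeq2 size factors, 5 by library size alone, 4 with no filter on low counts, 6 of the 8 tested when each library had to reach 10 counts, 10 by DESeq2 or with only the compared groups in the fit, 4 with the library-name prefix as a block, 1 without the 4 libraries of conflicting prefix, and 4 to 8 when each library was left out in turn. Under HDM, 10 as reported, it was 8 with no filter, 8 of the 8 tested when each library had to reach 10 counts, 9 with the prefix block or with only the compared groups, 4 without the 4 libraries, 9 to 10 leaving out each library, and 10 otherwise. The shares of all genes called lower moved too. Under VEH they were 21.1% with DESeq2 size factors, 17.6% by library size and 8.12% with no filter. They were 23.3% when each library had to reach 10 counts, 26.3% by DESeq2 and 17.5% with only the compared groups. Under HDM the same settings in that order gave 29.9%, 25.8%, 14.1%, 27.2%, 32.6% and 28.9%. Leaving out each library gave 10.6% to 21.2% under VEH and 21% to 24.9% under HDM. The cause of these changes was not tested, except that fewer libraries entered some fits and Clic5 and Cldn18 left the stricter filter. Scaling by library size alone moved the all-gene median from -0.11 to 0.03 under VEH and from -0.08 to 0.10 under HDM.

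With the replicate block, 5 genes were called under VEH and 10 under HDM, and none elsewhere. In that fit 18.6% of all genes were called lower under VEH and 27.6% under HDM. Same-numbered libraries had deviations correlated from -0.355 to 0.303 (median 0.0756 over 18 pairs), which cannot show whether the numbers pair the libraries.

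HDM against VEH and the interaction gave 0 calls throughout, but small values changed sign. In normal tissue the prefix block gave Ager 1.85, Hopx 0.68, Pdpn 0.70 and Akap5 1.36, leaving out the 4 libraries gave Ager 0.017, Pdpn 0.33 and Akap5 0.044, and the replicate block gave Cldn18 -0.094. In tumours library size alone gave Pdpn 0.011. The Pdpn interaction was -1.27 with the prefix block and -1.05 without the 4 libraries.

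Leaving out each library in turn, the ranges that crossed 0 were, in normal tissue, Ager from -0.36 to 0.19, Pdpn from -0.45 to 0.18, Akap5 from -0.48 to 0.044, Gprc5a from -0.071 to 0.16, Spock2 from -0.019 to 0.53, Cldn18 from -0.12 to 0.33; in tumours, Pdpn from -0.49 to 0.32 and Rtkn2 from -1.39 to 0.077; and for the interaction, Hopx from -1.15 to 0.044 and Pdpn from -0.31 to 0.50. For 6 genes the value rests on 45 counts or fewer in tumour HDM 3, which limits its precision there.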
